A study of Mus musculus with 9 samples.

Results

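The cytosolic and mitochondrial chaperones are described here in mouse CD4+ T cells carrying NFAT2 vectors, through 41 genes chosen by symbol: 11 of the HSP70 system, 10 of the HSP90 system, 6 J-domain proteins, the 8 subunits of the CCT chaperonin, 4 mitochondrial chaperones and 2 heat shock factors. All 41 were among the 16500 genes listed, and all 41 were tested. The cells were primary CD4+ T cells isolated from C57BL/6 mice, kept in RPMI-1640 medium with serum and given a vector by retrovirus. Control cells had received a vector labelled CTRL, NFAT2-CA cells a vector for NFAT2 (gene Nfatc1) in the form known as constitutively active, which does not need calcium signalling, and NFAT2-CARIT cells that form with changes known to impair its pairing with the factor AP-1. Each of the 3 groups had 3 libraries. The promoter of the vectors, the share of transduced cells, the age of the mice, and whether replicates came from separate mice or cultures are not stated in the labels. The p-values therefore measure the spread between libraries, which may be technical.

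Levels are in CPM, a gene's part of the reads assigned in its library, scaled so that each library sums to 1000000. They are given per library in the order of replicates 1, 2 and 3, or as mean ± SD (n = 3 per group). Log2 fold changes are on the log2(CPM + 1) scale, as estimate ± SE, and adjusted p-values are from limma over the 13090 genes with at least 1 CPM in at least 3 libraries. A gene was called at an adjusted p under 0.05. Both vector groups were set against the same Control libraries and so share them. In RNA from a whole culture, fewer cells expressing a gene and less RNA per cell cannot be told apart.

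Estimated depth ran from 19947900 to 38189000 reads per library. Nfatc1, the gene behind the vectors, stood at 188 to 228 CPM in Control, 336 to 395.5 CPM in NFAT2-CA and 240.5 to 253 CPM in NFAT2-CARIT libraries. Whether reads of the vector count towards it is not given. The 8 markers of CD4 T cells summed to 5548 to 5761 CPM in Control, 6190 to 6618 CPM in NFAT2-CA and 5994 to 6044 CPM in NFAT2-CARIT libraries. Of 5 B cell markers, 3 were listed, and they summed to 411 to 422, 206 to 211 and 182 to 204 CPM in the same order. The 2 CD8 T cell markers summed to 12.5 to 13.7, 28.4 to 30.8 and 22.6 to 24 CPM, and the 4 listed of 7 myeloid and dendritic markers to 11 to 13.1, 7.29 to 7.67 and 9.53 to 12.2 CPM. Markers of 1 list did not all move alike. Cd8a stood at 0.1275 to 0.5, 0.377 to 0.632 and 1.345 to 2.004 CPM, so its order between the vectors was the reverse of the CD8 sum. With NFAT2-CA the log2 fold changes ran from -0.64 to 1.18 for the CD4 markers. For the 2 myeloid and dendritic markers tested they ran from -2.39 to 0.4. The part of B, CD8 T, myeloid and dendritic cells in the chaperone values was not tested.

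HSP70 proteins hold unfolded chains and let them go again in a cycle driven by ATP. J-domain proteins (HSP40) bring them substrates and start ATP hydrolysis, and HSP110 and BAG proteins release the nucleotide. HSP90 takes over late folding steps of kinases and steroid receptors with its own cochaperones, CCT folds actin and tubulin inside a double ring, and HSP60 with its lid HSP10 does similar work in mitochondria. The factor HSF1 drives the heat-inducible genes through heat shock elements, inverted repeats of the unit GAA. Activated T cells make more of many of these proteins as they grow and divide.

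With NFAT2-CA, 31 of 41 chaperone genes were called against Control, 18 higher and 13 lower, and 27 of the 41 had no overlap between the groups' libraries (68.3% of all genes). Among all genes tested 65.5% were called, 29% higher and 36.5% lower, beside 75.6% of the chaperones. The median log2 fold change was 0.09 for the 41 genes and -0.06 for all genes. With NFAT2-CARIT, 33 of 41 were called, 20 higher and 13 lower, and 34 did not overlap (73.1% of all genes). The background was 70.3% of all genes called (29.2% higher, 41.1% lower). The medians were 0.14 and -0.09. Scaling by TMM factors gave 19 higher and 10 lower with NFAT2-CA and 22 higher and 9 lower with NFAT2-CARIT. Over all genes the higher calls went from 3794 to 4265 and from 3822 to 4390 under that scaling, and the lower calls from 4780 to 4206 and from 5378 to 4728. Between the vectors 7 of 41 were called, 6 higher and 1 lower with NFAT2-CARIT, or 17.1% beside 28.6% of all genes (11.9% higher, 16.7% lower). The authors' deposited table calls fewer members: 18 with NFAT2-CA (11 higher, 7 lower; background 21.9%, with 11.4% higher and 10.4% lower), 20 with NFAT2-CARIT (13 higher, 7 lower; background 25.6%, with 12.1% higher and 13.5% lower) and 2 between the vectors, both higher with NFAT2-CARIT (background 2.84%, with 1.19% higher and 1.65% lower). Its member shares, 43.9%, 48.8% and 4.88%, lie above its own backgrounds. Against Control the limma shares, 75.6% and 80.5%, also lie above theirs. With a filter of 10 CPM in at least 3 libraries, limma called 31 of 41 members and 6650 of 9233 genes with NFAT2-CA. With NFAT2-CARIT that filter gave 34 of 41 and 6964 of 9233, so the distance from the background depends on the filter. The share without overlap lay below its background with NFAT2-CA and above it with NFAT2-CARIT. Between the vectors the limma share lies below its background and the deposited share above it. The deposited share there rests on 2 genes. The backgrounds also differ in extent, with 16477 genes in the deposited table and 13090 in limma. Those 18 and 20 genes were also called by limma. With NFAT2-CA the deposited table lacks limma's calls of Hspa14, Bag3, Stub1, Chordc1, Cacybp, Stip1, Fkbp4, Dnajb6, Cct4, Cct5, Hspd1, Hspe1 and Hsf1. With NFAT2-CARIT it lacks those of Hspa14, Bag1, Bag3, Bag6, Stub1, Cacybp, Dnaja1, Dnaja2, Cct5, Cct6a, Cct7, Cct8 and Hspe1.

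Summed over the 41 genes, chaperone transcripts made up 7574 to 7652 CPM in Control (7613 ± 39.3), or 0.761% of the listed reads. They summed to 9198 ± 384 CPM with NFAT2-CA and to 9422 ± 320 CPM with NFAT2-CARIT. Hsp90ab1 was the largest single part of the sum; the other 40 genes summed to 5525 ± 93.4, 6237 ± 239 and 6496 ± 138 CPM. The families did not move as blocks, as the following values by role show.

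**Figure D1:**
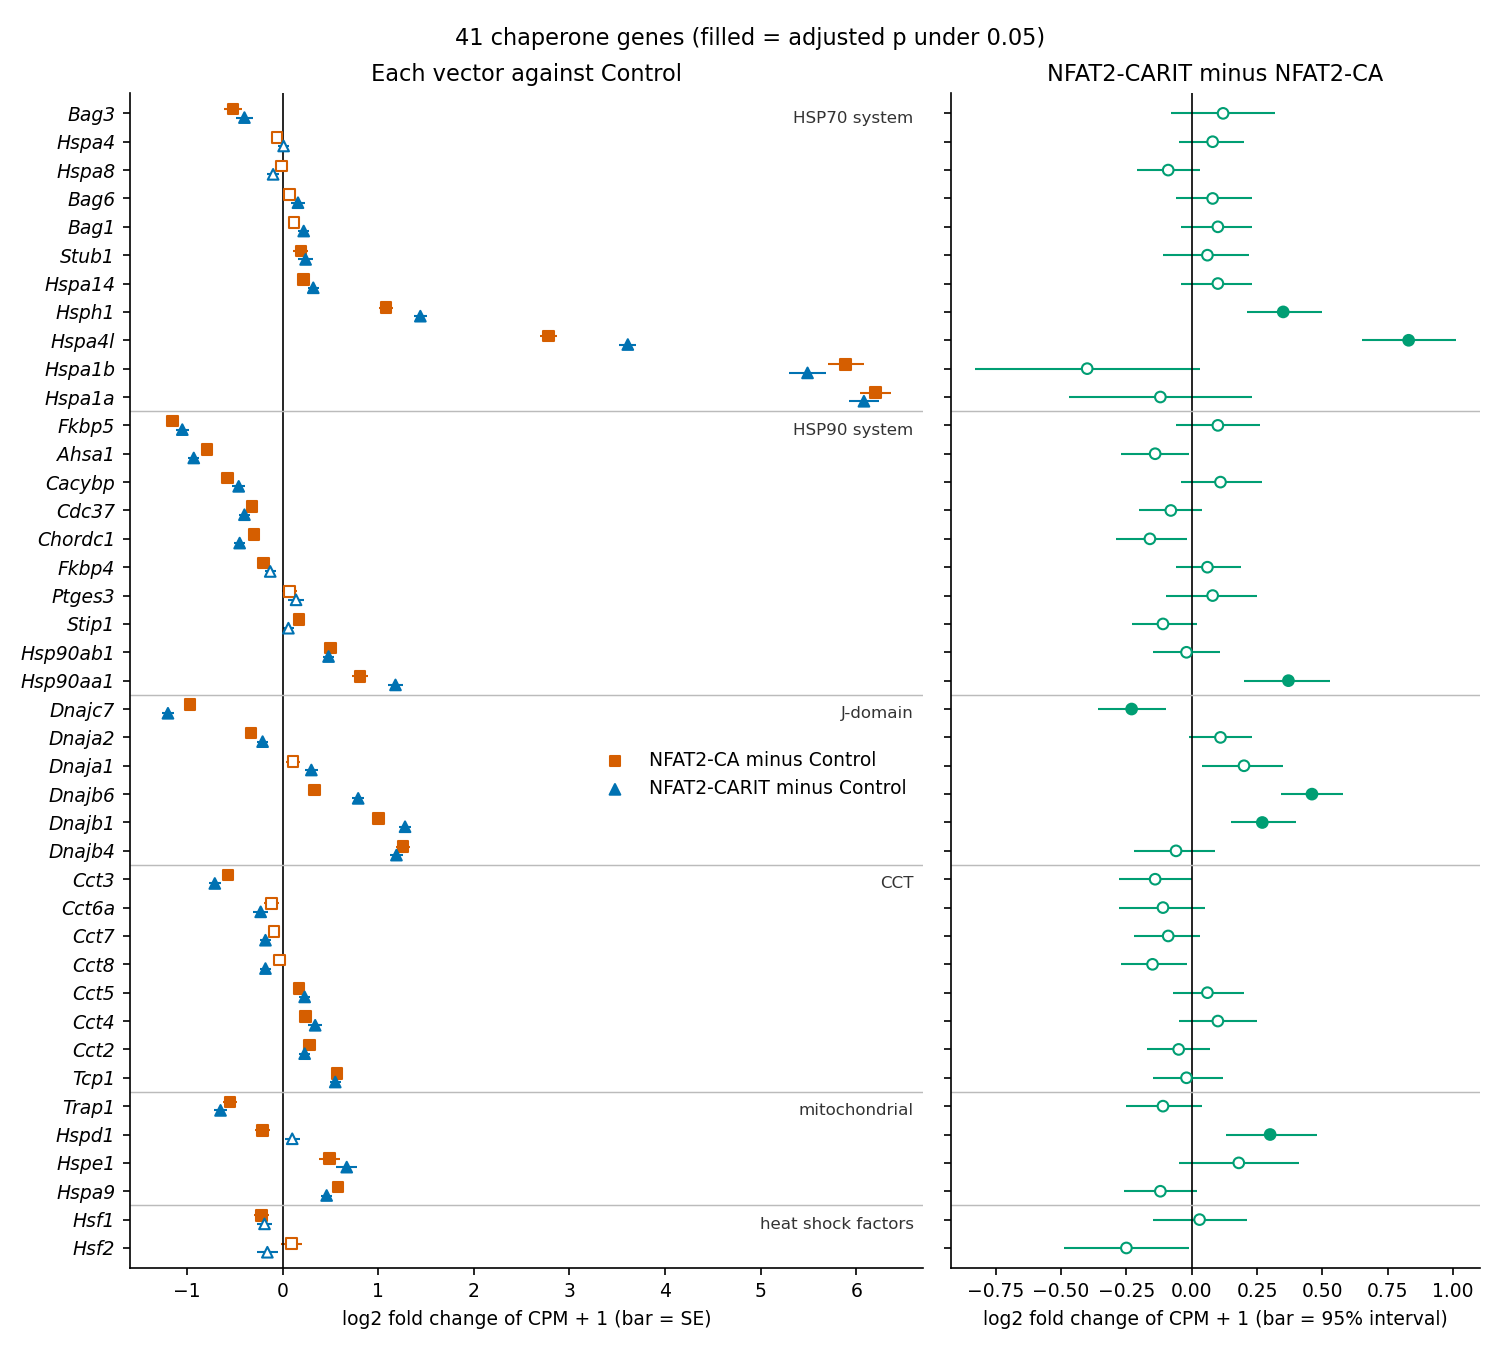
Log2 fold changes of the 41 chaperone genes by family. The left panel shows NFAT2-CA (squares) and NFAT2-CARIT (triangles) against Control with SE bars; the right panel shows NFAT2-CARIT minus NFAT2-CA with 95% intervals, and filled symbols passed an adjusted p of 0.05. Hspa1a, Hspa1b and Hspa4l stand far to the right, each family holds genes on both sides of 0 on the left, and 7 genes are filled on the right.

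The inducible HSP70 genes went from a few reads to about 100 CPM. Hspa1a (chromosome 17, 34969190 to 34972156, minus strand, mm10) and Hspa1b (34956436 to 34959238) encode the heat-inducible HSP70 and lie 9951 bases apart. Hspa1a stood at 0.951, 0.158 and 0.42 CPM in Control, which is about 22, 5 and 10 reads. The NFAT2-CA libraries held 108, 97.3 and 118 CPM of it and the NFAT2-CARIT libraries 103, 104 and 89.6 CPM. No NFAT2 library came near a Control library, and the Control libraries differed most among themselves in proportion. The log2 fold changes were 6.20 ± 0.16 (adjusted p = 3.1e-11) and 6.08 ± 0.16 (adjusted p = 3.1e-11), and their size depends on the added 1 CPM. The ratio of the means was 211 and 194, or 373 and 343 without Control replicate 1, so the size of the rise is uncertain. Both genes passed the filter on low values through the NFAT2 libraries, where they were high.

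Hspa1b stood at 1.37, 0.346 and 1.29 CPM in Control, at 120.2, 108 and 113 CPM with NFAT2-CA and at 80.0, 85.4 and 93.4 CPM with NFAT2-CARIT. It rose by 5.89 ± 0.19 (adjusted p = 2.2e-09) and by 5.49 ± 0.19 (adjusted p = 3.2e-09). All 3 NFAT2-CARIT libraries were below all 3 NFAT2-CA libraries, a log2 difference of -0.40 ± 0.19 (adjusted p = 0.15; 95% interval -0.83 to 0.03). That difference was called without Control replicate 2 (-0.40, adjusted p = 0.00085), with a pseudocount of 5 (-0.38, adjusted p = 0.0014) and with only the 6 libraries compared (-0.40, adjusted p = 0.0004). For Hspa1a the difference was -0.12 ± 0.16 (adjusted p = 0.63; 95% interval -0.47 to 0.23). The pair is hard to separate: 58.8% of the 50-base stretches of the Hspa1a transcript also occur in Hspa1b. Summed to 1 gene, the pair held 1.51 ± 0.923, 222 ± 13.9 and 185 ± 3.74 CPM, and the log2 difference between the vectors was -0.26 ± 0.27 (adjusted p = 0.53). That SE is from the model of all 9 libraries, so it includes the spread of the Control sums (0.504 to 2.317 CPM). The adjusted p therefore does not show the vectors to be alike. The highest NFAT2-CARIT sum, 189.7 CPM, was below the lowest NFAT2-CA sum, 205.8 CPM.

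The sequences just before both genes are shown because both rose from near 0 to similar levels. Of the 250 bases before the annotated start, 247 (98.8%) are the same in both. The last 150 are printed 5′ to 3′ on the gene's strand, from RefSeq on GRCm38.p6, with capitals for GAANNTTC, a heat shock element of 2 units (N is any base). The Hspa1a stretch is chr17:34972157-34972306 and the Hspa1b stretch is chr17:34959239-34959388.
Hspa1a: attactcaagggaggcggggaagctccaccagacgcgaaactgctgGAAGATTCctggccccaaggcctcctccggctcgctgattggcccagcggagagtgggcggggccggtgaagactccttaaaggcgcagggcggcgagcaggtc
Hspa1b: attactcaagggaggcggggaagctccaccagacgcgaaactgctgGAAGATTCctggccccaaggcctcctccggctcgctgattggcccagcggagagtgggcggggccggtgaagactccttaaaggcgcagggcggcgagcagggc
Such a 2-unit element, GAANNTTC or TTCNNGAA on either strand, occurs in 15.1% of all 32851 promoter windows of the same length (250 bases before to 50 after a start), so a match by itself is common. Among the members it occurs in 18 of 45 windows, for 16 of 35 genes. Of these, Hspa1a, Hspa1b, Hsph1, Dnajb4, Dnajb6, Hspe1, Cct2, Cct5 and Stub1 were called higher with both vectors. Bag3, Cdc37 and Chordc1 were called lower with both, and the rest were not called in 1 direction with both. A link between the element and these changes was not tested.

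The constitutive HSP70 gene did not pass. Hspa8, which encodes HSC70, stood at 896, 875 and 936 CPM in Control, 929, 905 and 860.3 CPM in NFAT2-CA and 875, 838 and 812 CPM in NFAT2-CARIT libraries. The groups overlapped, with log2 differences from Control of -0.01 ± 0.06 (adjusted p = 0.92; 95% interval -0.13 to 0.11) and -0.10 ± 0.06 (adjusted p = 0.12; 95% interval -0.22 to 0.02). Quantile normalization called the NFAT2-CARIT value (-0.15, adjusted p = 0.017). Per kilobase of transcript, Hspa8 held 375 CPM with NFAT2-CA, against 36.3 CPM for Hspa1a and 40.7 CPM for Hspa1b, so in NFAT2-CA libraries the induced pair remained well below HSC70. Hspa8 shares 73.2% of its 50-base stretches with other annotated genes, mostly pseudogenes, so its level is less certain than its small spread shows. Hspa14, a ribosome-associated HSP70 relative, rose slightly, from 38.1 ± 1.78 to 44.4 ± 1.73 and 47.6 ± 1.76 CPM (log2 0.22 ± 0.06, adjusted p = 0.0065, and 0.32 ± 0.06, adjusted p = 0.00033). The authors' deposited table calls neither rise (adjusted p = 0.54 and 0.26).

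The HSP110 genes, whose products exchange the nucleotide of HSP70, split widely. Hspa4l (chromosome 3, 40745382 to 40796103) stood at 55.5, 53.5 and 41.9 CPM in Control, at 364, 327 and 356 CPM with NFAT2-CA and at 606, 628 and 629.5 CPM with NFAT2-CARIT. The 3 groups did not overlap, and each step was larger than the spread within any group. Hspa4l rose by 2.78 ± 0.09 with NFAT2-CA (adjusted p = 5.1e-13) and by 3.61 ± 0.09 with NFAT2-CARIT (adjusted p = 2.4e-14). The difference between the vectors was 0.83 ± 0.09 (adjusted p = 4.9e-06; 95% interval 0.65 to 1.01), and it was also called in the authors' deposited table (0.83, adjusted p = 3.3e-11).

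Hsph1, the HSP105 gene, stood at 28.7, 29.1 and 27.2 CPM in Control, at 64.5, 58.5 and 60.7 CPM with NFAT2-CA and at 81.6, 71.4 and 82.9 CPM with NFAT2-CARIT. Again no library of one group overlapped another group. The rises were 1.08 ± 0.07 (adjusted p = 8.6e-10) and 1.44 ± 0.07 (adjusted p = 2e-11), and NFAT2-CARIT exceeded NFAT2-CA by 0.35 ± 0.07 (adjusted p = 0.0012). Hspa4, the constitutive member, had 232 ± 10.9, 222 ± 12.6 and 234 ± 6.23 CPM and did not pass in any comparison (adjusted p = 0.35, 0.86 and 0.37). The order among the 3 genes therefore changed. In CPM the ratio of Hspa4l to Hspa4 was 0.216 ± 0.022 in Control, 1.57 ± 0.094 with NFAT2-CA and 2.66 ± 0.068 with NFAT2-CARIT. All 3 NFAT2-CA libraries thus had more Hspa4l than Hspa4 in CPM. Per kilobase, the order depends on the Hspa4l transcript length used, 9479 bases. Hspa4l held 0.105 ± 0.011 of the Hspa4 level per kilobase in Control, 0.767 ± 0.046 with NFAT2-CA and 1.29 ± 0.033 with NFAT2-CARIT, where all 3 libraries had more Hspa4l than Hspa4.

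**Figure D2:**
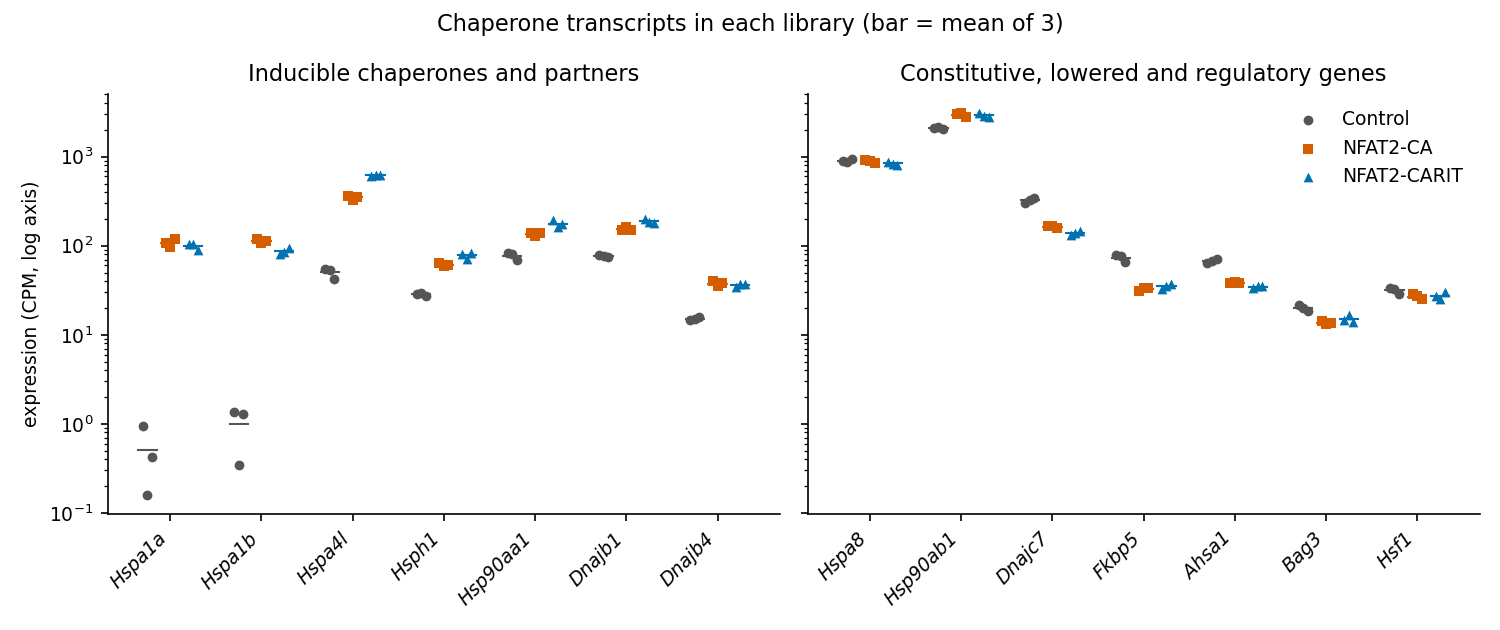
CPM on a log axis of 14 chaperone genes in each of the 9 libraries, by group, with a bar at the mean of 3. Hspa1a and Hspa1b lie at 0.158 to 1.37 CPM in Control and at 80.0 CPM or more in every NFAT2 library, while Hspa8 overlaps between the groups and Dnajc7, Fkbp5, Ahsa1 and Bag3 are lower in all NFAT2 libraries.

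Among the HSP70 cofactors, Bag3 went the opposite way to Hspa1a. Bag3, a stress-inducible exchange factor that links HSP70 to autophagy, stood at 21.8, 20.1 and 18.2 CPM in Control, at 14.4, 13.1 and 13.5 CPM with NFAT2-CA and at 14.5, 16.6 and 13.9 CPM with NFAT2-CARIT. It fell by 0.52 on the log2 scale (SE 0.09, adjusted p = 0.00013) and by 0.40 (SE 0.09, adjusted p = 0.0012), with no overlap with Control. The authors' deposited table does not call either fall. Bag1, a nucleotide exchange factor, had 88.1 ± 4.91, 96.0 ± 3.67 and 103 ± 6.03 CPM and rose with NFAT2-CARIT (0.22 ± 0.06, adjusted p = 0.0055). Its NFAT2-CA value of 0.12 ± 0.06 did not pass (adjusted p = 0.096), but did without Control replicate 3 (0.17, adjusted p = 0.027) and under TMM factors (0.19, adjusted p = 0.019).

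Stub1 encodes CHIP, the ubiquitin ligase that marks HSP70 and HSP90 clients. It had 39.0 ± 3.01, 44.5 ± 3.28 and 46.3 ± 3.38 CPM and was called higher with both vectors (0.19 ± 0.08, adjusted p = 0.043, and 0.24 ± 0.08, adjusted p = 0.011). The call with NFAT2-CA was lost without Control replicate 1 or 2, NFAT2-CA replicate 1 or NFAT2-CARIT replicate 2 (0.13 to 0.19, adjusted p = 0.052 to 0.20), with no filter (adjusted p = 0.054) and with only the 6 libraries compared (adjusted p = 0.051). With NFAT2-CARIT it was lost without NFAT2-CARIT replicate 1 (0.18, adjusted p = 0.062). Bag6, which guards hydrophobic proteins in the cytosol, had 224 ± 20.4, 235 ± 9.57 and 249 ± 10.1 CPM. It was called higher with NFAT2-CARIT alone (0.16 ± 0.07, adjusted p = 0.045; 0.07 ± 0.07, adjusted p = 0.35, with NFAT2-CA). Without Control replicate 3 the value was 0.08 (adjusted p = 0.18), and it also lost its call without NFAT2-CARIT replicate 1 or 2 or NFAT2-CA replicate 1 or 2 (0.13 to 0.16, adjusted p = 0.051 to 0.14), with no filter (adjusted p = 0.054) and with only the 6 libraries compared (adjusted p = 0.062).

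Both cytosolic HSP90 genes rose. Hsp90ab1 (chromosome 17, 45567775 to 45573271), the constitutive beta form and the highest of the 41 in CPM, stood at 2107, 2132 and 2027 CPM in Control, at 3039, 3060.2 and 2786 CPM with NFAT2-CA and at 3128, 2877 and 2773 CPM with NFAT2-CARIT. All NFAT2 libraries were above all Control libraries, by 0.50 ± 0.06 (adjusted p = 2.1e-06) and 0.48 ± 0.06 (adjusted p = 2.8e-06). The vectors did not differ detectably (-0.02 ± 0.06, adjusted p = 0.86; 95% interval -0.15 to 0.11).

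Hsp90aa1 (chromosome 12, 110690605 to 110702728), the inducible alpha form, stood at 83.6, 80.2 and 68.8 CPM in Control, at 139.6, 130.2 and 139.4 CPM with NFAT2-CA and at 195, 163 and 173 CPM with NFAT2-CARIT. The 3 groups were separate. It rose by 0.81 ± 0.08 (adjusted p = 1.5e-07) and 1.18 ± 0.08 (adjusted p = 1.3e-09), and NFAT2-CARIT libraries exceeded NFAT2-CA libraries by 0.37 ± 0.08 (adjusted p = 0.0021). The ratio of alpha to beta in CPM went from 0.0371 ± 0.0029 to 0.0462 ± 0.0037 and 0.0604 ± 0.0034. Of the Hsp90aa1 stretches of 50 bases, 58.5% occur in other annotated genes, against 4.5% for Hsp90ab1, so the ratio between the forms is uncertain in size.

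The cochaperones of HSP90 went mostly down in limma's calls. Of 8, 6 fell and 1 rose with NFAT2-CA, and 5 fell and none rose with NFAT2-CARIT; Ptges3 passed in neither comparison. Of all genes tested, 36.5% and 41.1% were called lower. The authors' deposited table calls 3 of the 8 with NFAT2-CA (Ahsa1, Cdc37 and Fkbp5) and 4 with NFAT2-CARIT (Chordc1 as well), all lower. Fkbp5, an immunophilin of steroid receptor complexes that glucocorticoids induce, stood at 79.1, 75.9 and 66.1 CPM in Control, at 31.4, 33.1 and 33.3 CPM with NFAT2-CA and at 32.7, 35.6 and 37.0 CPM with NFAT2-CARIT. It fell by 1.15 (SE 0.07, adjusted p = 1e-09) and by 1.05 (SE 0.07, adjusted p = 2.8e-09), a mean in Control 2.26 and 2.10 times that with each vector. The related Fkbp4 (FKBP52) had 69.3 ± 0.537, 60.4 ± 2.89 and 63.1 ± 2.18 CPM, values of -0.20 ± 0.06 (adjusted p = 0.0075) and -0.13 ± 0.06 (adjusted p = 0.052). Its NFAT2-CARIT value was called without NFAT2-CARIT replicate 1 (-0.16, adjusted p = 0.046) or NFAT2-CA replicate 3 (-0.13, adjusted p = 0.041), and its NFAT2-CA value was not called under TMM factors (-0.13, adjusted p = 0.061).

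Ahsa1 (chromosome 12, 87266479 to 87273998) encodes AHA1, which speeds the ATPase of HSP90. It stood at 63.3, 66.7 and 70.5 CPM in Control, at 37.8, 38.8 and 37.9 CPM with NFAT2-CA and at 33.3, 35.2 and 35.1 CPM with NFAT2-CARIT. The falls of 0.79 (SE 0.06, adjusted p = 1.1e-08) and 0.93 (SE 0.06, adjusted p = 1.2e-09) on the log2 scale ran against the rise of both HSP90 genes in the same libraries. Between the vectors the Ahsa1 libraries did not overlap, but the difference of -0.14 ± 0.06 did not pass (adjusted p = 0.11).

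Cdc37, which delivers kinases to HSP90, went from 349 ± 4.84 CPM to 280.5 ± 17.2 and 265 ± 6.28 CPM (-0.32 ± 0.06, adjusted p = 0.00012, and -0.40 ± 0.06, adjusted p = 1e-05). Cacybp, the calcyclin-binding protein, stood at 35.5, 37.4 and 41.4 CPM in Control, at 26.4, 23.7 and 25.5 CPM with NFAT2-CA and at 27.8, 26.9 and 27.3 CPM with NFAT2-CARIT (-0.58 ± 0.07, adjusted p = 3.4e-06, and -0.46 ± 0.07, adjusted p = 3.2e-05). Chordc1, a zinc-binding HSP90 partner, stood at 92.2, 91.3 and 103 CPM in Control, at 79.5, 77.2 and 75.2 CPM with NFAT2-CA and at 65.8, 71.2 and 71.0 CPM with NFAT2-CARIT (-0.30 ± 0.06, adjusted p = 0.00052, and -0.45 ± 0.06, adjusted p = 6.8e-06). For these 3 genes no NFAT2 library reached a Control library. The Chordc1 difference between the vectors, -0.16 ± 0.06 (adjusted p = 0.074), passed without Control replicate 3 (-0.16, adjusted p = 0.031).

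Stip1 (HOP), which bridges HSP70 and HSP90, was the cochaperone called higher with NFAT2-CA, from 99.8 ± 4.78 to 112 ± 5.40 CPM (0.17 ± 0.06, adjusted p = 0.02). The call was lost without Control replicate 2 or NFAT2-CA replicate 1 or 2 (0.13 to 0.15, adjusted p = 0.073 to 0.097). With NFAT2-CARIT it stood at 104 ± 3.75 CPM (0.06 ± 0.06, adjusted p = 0.35), or 0.15 (adjusted p = 0.044) under TMM factors. Ptges3, the cochaperone p23, had 29.6 ± 2.06, 31.1 ± 3.28 and 32.7 ± 1.73 CPM (adjusted p = 0.49 and 0.13). Its NFAT2-CARIT value was called under TMM factors (0.22, adjusted p = 0.019) and quantile normalization (0.21, adjusted p = 0.027).

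J-domain genes went both ways. Dnajb1, the main HSP40 partner of inducible HSP70, stood at 78.7, 76.6 and 74.7 CPM in Control, at 152, 162 and 151 CPM with NFAT2-CA and at 200.5, 184 and 178 CPM with NFAT2-CARIT. The groups were separate in all 3 comparisons: 1.00 ± 0.06 (adjusted p = 3.3e-10), 1.28 ± 0.06 (adjusted p = 1.4e-11) and, between the vectors, 0.27 ± 0.06 (adjusted p = 0.0027). Dnajb4, a close relative, stood at 14.5, 15.2 and 15.8 CPM in Control, at 39.7, 34.9 and 38.2 CPM with NFAT2-CA and at 34.1, 37.0 and 36.8 CPM with NFAT2-CARIT. It rose by 1.26 ± 0.07 (adjusted p = 2.6e-10) and 1.19 ± 0.07 (adjusted p = 4.3e-10), and the vectors overlapped (-0.06 ± 0.07, adjusted p = 0.57; 95% interval -0.22 to 0.09).

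Dnajb6, a suppressor of protein aggregation, showed the second largest call between the vectors among the 41 genes. It stood at 86.9, 81.6 and 78.9 CPM in Control, at 107, 104 and 101 CPM with NFAT2-CA and at 145, 138 and 148 CPM with NFAT2-CARIT. The rises were 0.33 ± 0.06 (adjusted p = 8.8e-05) and 0.79 ± 0.06 (adjusted p = 3.6e-09), and the difference was 0.46 ± 0.06 (adjusted p = 2.2e-05; 95% interval 0.34 to 0.58). The authors' deposited table also calls that difference (0.46, adjusted p = 0.022), and together with Hspa4l it is all that this table calls among the 41 genes between the vectors. Dnajb6 shares 41.9% of its 50-base stretches with other annotated genes.

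Dnaja1 had 31.1 ± 0.378, 33.7 ± 3.24 and 38.6 ± 1.49 CPM and rose with NFAT2-CARIT (0.30 ± 0.07, adjusted p = 0.0017). Its NFAT2-CA value, 0.11 ± 0.07 (adjusted p = 0.22), passed without NFAT2-CA replicate 2 (0.19, adjusted p = 0.036). The difference between the vectors, 0.20 ± 0.07 (adjusted p = 0.057), passed without Control replicate 3 (0.20, adjusted p = 0.048) or NFAT2-CA replicate 1 (0.24, adjusted p = 0.045) and under both other scalings (0.22, adjusted p = 0.035 and 0.034). Dnaja2, of the same type, fell: 166, 161 and 150 CPM in Control, 127, 129 and 124 CPM in NFAT2-CA, and 134, 137 and 139.7 CPM in NFAT2-CARIT libraries (-0.33 ± 0.06, adjusted p = 8.8e-05, and -0.21 ± 0.06, adjusted p = 0.0029; -0.13, adjusted p = 0.051, for NFAT2-CARIT under TMM factors).

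Dnajc7 (chromosome 11, 100582818 to 100620188) combines a J domain with the repeats that bind HSP70 and HSP90 tails. It stood at 299, 327 and 341 CPM in Control, at 167, 165.5 and 159.5 CPM with NFAT2-CA and at 133, 140.2 and 147 CPM with NFAT2-CARIT. The groups did not overlap. It fell by 0.97 (SE 0.06, adjusted p = 7.6e-10) and by 1.20 (SE 0.06, adjusted p = 4.4e-11) on the log2 scale. Between the vectors Dnajc7 was the 1 chaperone gene called lower in NFAT2-CARIT libraries, at -0.23 ± 0.06 (adjusted p = 0.011), a call lost without NFAT2-CARIT replicate 1 (-0.19, adjusted p = 0.055). Exons of Dnajc7 overlap those of Nkiras2 on the opposite strand by up to 287 bases. Whether counting used strand is not given, and the same limit holds for Dnaja1 with Smu1 (608 bases), Tcp1 with Acat3 (571), Stub1 with Jmjd8 (501), Cct6a with Psph (452), Hspa1a with Gm20481 (377), Dnajb6 with Gm5129 (249), Cct7 with Pradc1 (214), Cct8 with Usp16 (192) and Trap1 with Dnase1 (54).

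The CCT chaperonin is built from 1 copy of each of 8 subunits per ring, and its transcripts moved apart. Tcp1 (CCT1; chromosome 17, 12915701 to 12925067) stood at 320.3, 320.7 and 343 CPM in Control, at 520.4, 495 and 446 CPM with NFAT2-CA and at 497.5, 478 and 467 CPM with NFAT2-CARIT. It rose by 0.57 ± 0.06 (adjusted p = 7e-07) and 0.55 ± 0.06 (adjusted p = 8.1e-07). Cct3 (chromosome 3, 88297116 to 88321767) went the other way, with 85.5, 83.8 and 94.3 CPM in Control, 61.4, 59.1 and 55.9 CPM in NFAT2-CA and 55.1, 50.5 and 54.1 CPM in NFAT2-CARIT libraries. It fell by 0.57 (SE 0.06, adjusted p = 9.6e-07) and by 0.71 (SE 0.06, adjusted p = 5.8e-08). Neither gene overlapped between Control and NFAT2 libraries.

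The other subunits lay between. Cct2 stood at 398, 382 and 403 CPM in Control, at 498, 496 and 449 CPM with NFAT2-CA and at 475.5, 466 and 448 CPM with NFAT2-CARIT (0.28 ± 0.06, adjusted p = 0.00039, and 0.23 ± 0.06, adjusted p = 0.0019). Cct4 stood at 232, 228 and 255 CPM in Control, at 287, 302 and 255 CPM with NFAT2-CA and at 319, 305 and 281 CPM with NFAT2-CARIT (0.24 ± 0.07, adjusted p = 0.0081, and 0.34 ± 0.07, adjusted p = 0.00048). NFAT2-CA replicate 3 fell within the Control range for Cct4, and the NFAT2-CA call was lost without NFAT2-CA replicate 2 (0.18, adjusted p = 0.053). Cct5 had 311 ± 26.3, 349 ± 14.8 and 364 ± 13.2 CPM (0.17 ± 0.06, adjusted p = 0.031, and 0.23 ± 0.06, adjusted p = 0.0047). The NFAT2-CA call of Cct5 was lost without Control replicate 1 or 2 or NFAT2-CA replicate 1 or 2 (0.13 to 0.16, adjusted p = 0.084 to 0.13) and with only the 6 libraries compared (adjusted p = 0.052).

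Cct6a, Cct7 and Cct8 were not called with NFAT2-CA (-0.12 ± 0.08, -0.09 ± 0.06 and -0.03 ± 0.06) and were called slightly lower with NFAT2-CARIT. Their means were 117.5 ± 13.5 and 99.6 ± 6.52 CPM for Cct6a, 324 ± 9.06 and 286 ± 14.5 CPM for Cct7, and 199.8 ± 4.40 and 176 ± 5.57 CPM for Cct8, in Control and NFAT2-CARIT. The log2 values were -0.23 ± 0.08 (adjusted p = 0.016), -0.18 ± 0.06 (adjusted p = 0.011) and -0.18 ± 0.06 (adjusted p = 0.014). Under TMM factors none of the 3 passed (-0.15, -0.10 and -0.10; adjusted p = 0.10, 0.17 and 0.17). Without NFAT2-CARIT replicate 3, Cct6a and Cct7 lost their calls (-0.19, adjusted p = 0.071, and -0.14, adjusted p = 0.06), as did Cct6a without Control replicate 3 (-0.14, adjusted p = 0.077) and Cct8 without NFAT2-CARIT replicate 2 (-0.17, adjusted p = 0.053). No CCT subunit was called between the vectors. Cct8 (-0.15 ± 0.06, adjusted p = 0.079) passed without NFAT2-CA replicate 3 (-0.20, adjusted p = 0.02) and without Control replicate 3 (-0.15, adjusted p rounded to 0.05), and under quantile normalization (-0.16, adjusted p = 0.049).

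Per kilobase of transcript, the 7 subunits with an annotated coding transcript held 44.5 (Cct3) to 201 CPM (Cct2) in Control. The same genes marked the ends of the range with NFAT2-CA, at 29.7 and 246 CPM per kilobase, and with NFAT2-CARIT, at 26.9 and 237 CPM per kilobase. Cct6a has no length here because the annotation used holds no coding transcript for it. Summed over the 8 genes, CCT stood at 2001 ± 89.4, 2266 ± 136 and 2226 ± 87.3 CPM.

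**Figure D3:**
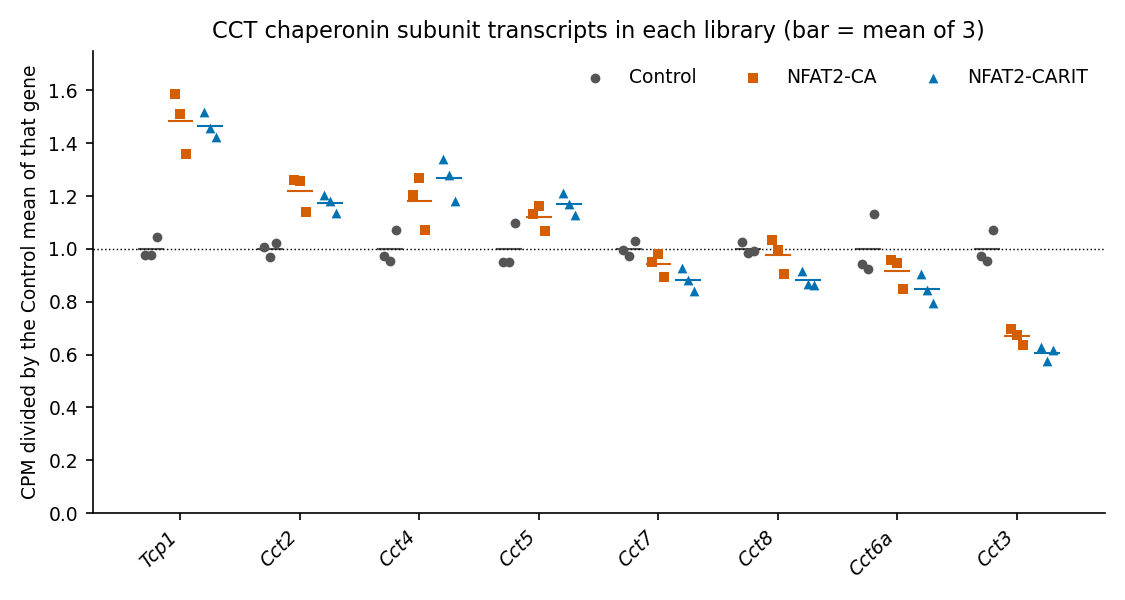
CPM of each CCT subunit in each library, divided by the Control mean of that gene (dotted line at 1), with a bar at the mean of 3. Tcp1 lies at 1.36 to 1.59 with NFAT2-CA and at 1.43 to 1.52 with NFAT2-CARIT, while Cct3 lies at 0.64 to 0.70 and 0.57 to 0.63.

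Of the mitochondrial chaperones, Hspa9 (mortalin, the HSP70 of the matrix) rose and Trap1 (the HSP90 of the matrix) fell. Hspa9 stood at 164, 159.6 and 146 CPM in Control, at 252, 229 and 225 CPM with NFAT2-CA and at 227, 211 and 210.4 CPM with NFAT2-CARIT (0.58 ± 0.06, adjusted p = 6.1e-07, and 0.46 ± 0.06, adjusted p = 7.1e-06). Trap1 stood at 60.4, 57.4 and 62.5 CPM in Control, at 42.3, 40.8 and 39.1 CPM with NFAT2-CA and at 34.7, 38.1 and 40.9 CPM with NFAT2-CARIT (-0.55 ± 0.07, adjusted p = 3.4e-06, and -0.65 ± 0.07, adjusted p = 3.8e-07). Neither overlapped with Control, and neither differed detectably between the vectors (adjusted p = 0.18 and 0.28).

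Hspd1 (HSP60) and Hspe1 (HSP10) form 1 chaperonin and are transcribed away from each other on chromosome 1, with listed spans (55077835 to 55088243 and 55088132 to 55091307) that overlap by 112 bases. Hspe1 stood at 15.8, 13.7 and 19.6 CPM in Control, at 25.02, 24.27 and 20.53 CPM with NFAT2-CA and at 26.3, 26.4 and 26.6 CPM with NFAT2-CARIT. It rose by 0.49 ± 0.11 (adjusted p = 0.00083) and by 0.67 ± 0.11 (adjusted p = 3.9e-05). Hspd1 stood at 39.1, 39.3 and 33.4 CPM in Control, at 34.7, 31.5 and 30.2 CPM with NFAT2-CA and at 41.6, 36.1 and 42.04 CPM with NFAT2-CARIT. Its groups overlapped with Control.

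The Hspd1 value with NFAT2-CA was -0.21 ± 0.08 (adjusted p = 0.038). It lost its call under TMM factors (-0.14, adjusted p = 0.14) and quantile normalization (-0.18, adjusted p = 0.082), and without Control replicate 1 or 2 or NFAT2-CA replicate 2 or 3 (-0.19 to -0.17, adjusted p = 0.094 to 0.13). With NFAT2-CARIT it was 0.10 ± 0.08 (adjusted p = 0.31). The difference between the vectors, 0.30 ± 0.08 (adjusted p = 0.012), was called. Hspd1 shares 44.8% and Hspe1 36.1% of their 50-base stretches with other annotated genes, so their ratio, 0.447 ± 0.12 in Control, 0.724 ± 0.046 with NFAT2-CA and 0.665 ± 0.058 with NFAT2-CARIT, is uncertain in size. The authors' deposited table calls neither gene.

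**Figure D4:**
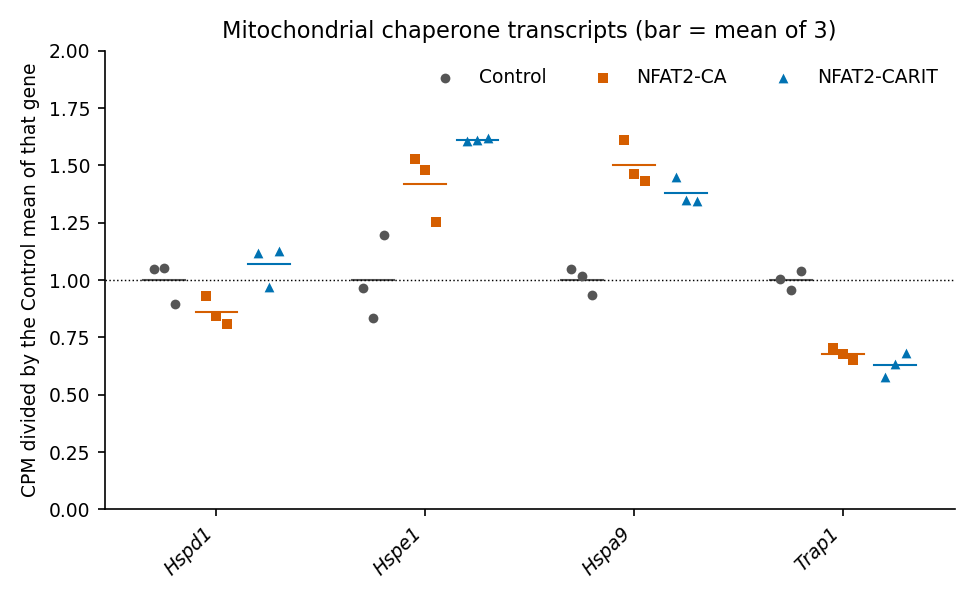
CPM of the 4 mitochondrial chaperone genes in each library, divided by the Control mean of that gene, with a bar at the mean of 3. Hspe1 and Hspa9 lie above the Control libraries with both vectors, Trap1 lies below at 0.58 to 0.70, and Hspd1 overlaps Control.

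The heat shock factor genes changed little. Hsf1 stood at 33.2, 32.6 and 28.8 CPM in Control, at 28.7, 27.1 and 24.9 CPM with NFAT2-CA and at 27.4, 25.1 and 30.2 CPM with NFAT2-CARIT. Its NFAT2-CA value of -0.22 ± 0.08 was called (adjusted p = 0.03). That call was lost without Control replicate 1 or 2 or NFAT2-CA replicate 2 or 3 (-0.23 to -0.17, adjusted p = 0.057 to 0.11) and under TMM factors (-0.16, adjusted p = 0.10) and quantile normalization (-0.19, adjusted p = 0.059). Its NFAT2-CARIT value of -0.19 ± 0.08 was not called (adjusted p = 0.057), but was without Control replicate 3, NFAT2-CARIT replicate 3 or NFAT2-CA replicate 3 (-0.25 to -0.19, adjusted p = 0.018 to 0.049). Hsf2 had 11.8 ± 1.15, 12.6 ± 1.98 and 10.4 ± 0.599 CPM and did not pass in any comparison (adjusted p = 0.51, 0.22 and 0.12), except between the vectors without NFAT2-CA replicate 2 (-0.37, adjusted p = 0.023). HSF1 acts through its protein state, which these data do not measure.

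A heat shock element of 3 units, GAANNTTCNNGAA or TTCNNGAANNTTC (each the reverse complement of the other), was searched in the promoter windows of the 35 members that RefSeq's table on GRCm38.p6 holds. It was found in 5 of them, Hspd1, Hspe1, Dnajb6, Hsph1 and Chordc1, and in 0.603% of all 32851 windows. The 5 stretches of 30 bases are shown because their genes moved in different directions. They are printed 5′ to 3′ on the gene's strand, with all overlapping matches in capitals.
Hspe1: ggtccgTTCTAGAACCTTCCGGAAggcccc
Hspd1: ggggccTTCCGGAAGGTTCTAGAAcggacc
Dnajb6: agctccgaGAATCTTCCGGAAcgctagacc
Hsph1: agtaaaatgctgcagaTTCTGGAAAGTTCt
Chordc1: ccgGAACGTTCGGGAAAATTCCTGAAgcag
The Hspe1 and Hspd1 lines are the same 30 base pairs read on each strand (chr1:55088053-55088082). The others are chr5:29735844-29735873 for Dnajb6, chr5:149636287-149636316 for Hsph1 and chr9:18292260-18292289 for Chordc1. Counted from RefSeq's start, the stretches of Hspe1 (-95 to -66), Hspd1 (-150 to -121) and Dnajb6 (-54 to -25) lie before it. The Chordc1 stretch (-7 to 23) spans that start, and the Hsph1 stretch (21 to 50) lies after it. The gene spans listed with the expression values start elsewhere (Dnajb6 at 29735688, plus strand, and Hspd1 at 55088243, minus strand). By those spans, every stretch except that of Hspe1 lies inside its gene.

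Chordc1, whose stretch holds 3 overlapping matches, fell with both vectors, whereas Hsph1 and Dnajb6, with 1 match each, rose. The shared Hspd1 and Hspe1 element, with 2 matches, lies in the windows of 1 gene that rose and 1 whose call was not stable. Hspa1a and Hspa1b have the 2-unit form and no 3-unit match in their windows. Dnajb1, Dnajc7, Ahsa1, Fkbp5 and Hspa4l have neither form in theirs. The AP-1 site TGANTCA was found in the windows of 2 members, Bag3 and Cct5, against 7.81% of all windows. A match is a run of letters, not a binding site, and elements outside these windows were not searched.

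Between the vectors, then, the 6 genes called higher with NFAT2-CARIT were Hspa4l, Dnajb6, Hsp90aa1, Hsph1, Hspd1 and Dnajb1, with differences of 0.83, 0.46, 0.37, 0.35, 0.30 and 0.27, and Dnajc7 was the 1 called lower. The 6 hold an HSP110 pair, an HSP90, a pair of HSP40 genes and HSP60. Of these, 5 also rose against Control with both vectors. Dnajc7 fell against Control with both. Libraries of the vector groups did not overlap for 15 of 41 members, against 44% of all genes tested.

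Further genes of the folding machinery were counted from lists chosen with earlier results in view. Their counts stand beside 29% of all genes called higher and 36.5% lower with NFAT2-CA, and 29.2% and 41.1% with NFAT2-CARIT. Of 31 tested other cofactors of HSP70, HSP90 and J-domain proteins, 11 rose and 12 fell with NFAT2-CA and 11 rose and 15 fell with NFAT2-CARIT, with medians of -0.05 and -0.26. Hspa2, an HSP70 mainly of testis, rose from 2.85 ± 0.514 to 19.6 ± 0.774 and 17.5 ± 1.58 CPM (2.42 ± 0.11, adjusted p = 9.6e-12, and 2.27 ± 0.11, adjusted p = 1.9e-11). Dnajb2 rose by 1.17 ± 0.08 (adjusted p = 1.8e-09) and 0.99 ± 0.08 (adjusted p = 1.1e-08). Hspbp1, a nucleotide exchange factor of HSP70, fell from 15.2 ± 2.01 to 4.62 ± 0.246 and 4.30 ± 0.72 CPM (-1.52 ± 0.12, adjusted p = 1.9e-08, and -1.62 ± 0.12, adjusted p = 7.5e-09). Ppp5c, an HSP90-bound phosphatase, fell with NFAT2-CA from 91.2 ± 1.62 to 49.8 ± 0.827 CPM (-0.86 ± 0.05, adjusted p = 8.6e-10). With NFAT2-CARIT it was likewise lower than in Control, at 47 ± 0.916 CPM. Dnaja4 separated the vectors in the other direction from Dnajb1 and Dnajb6, with 31.4 ± 1.39 CPM in NFAT2-CA and 17.9 ± 1.59 CPM in NFAT2-CARIT libraries (-0.78 ± 0.08, adjusted p = 1.9e-06). Its Control mean, 24 ± 0.688 CPM, lay between them, whereas Dnajb1 and Dnajb6 rose with both vectors.

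Of 7 small heat shock protein genes, 3 were listed and tested; 2 rose with each vector, and Hspb11 fell with NFAT2-CARIT (-0.22 ± 0.08, adjusted p = 0.028). Hspb1, which encodes HSP27, was at 0 in the list for each Control library and stood at 4.54 ± 0.219 CPM in NFAT2-CA and 9.79 ± 2.38 CPM in NFAT2-CARIT libraries, a log2 difference between the vectors of 0.94 ± 0.15 (adjusted p = 0.00029). It entered the test through the NFAT2 libraries. Hspb6 rose from 8.43 ± 0.747 to 12.9 ± 1.80 and 14.6 ± 0.213 CPM (0.56 ± 0.11, adjusted p = 0.00023, and 0.73 ± 0.11, adjusted p = 1.2e-05).

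Of the 10 prefoldin and CCT cofactor genes, 3 rose and none fell with NFAT2-CA, and 3 rose and 3 fell with NFAT2-CARIT. That is 30% and 60% called, beside 65.5% and 70.3% of all genes. The rises include Cct6b, itself named as a CCT subunit and close to the filter. Cct6b entered the test through the NFAT2 libraries, where it was higher. It had 0.544 ± 0.219 CPM in Control, 1.47 ± 0.501 CPM with NFAT2-CA and 1.46 ± 0.195 CPM with NFAT2-CARIT. Pfdn1 led with a rise from 27.7 ± 3.87 to 48.5 ± 1.56 and 53.3 ± 1.83 CPM (0.80 ± 0.08, adjusted p = 2.8e-07, and 0.93 ± 0.08, adjusted p = 3.5e-08), beside Pfdn2 and Pfdn4 at -0.26 ± 0.09 (adjusted p = 0.014) and -0.30 ± 0.12 (adjusted p = 0.029) with NFAT2-CARIT. Of 19 mitochondrial import and protease genes, 6 rose and 7 fell with NFAT2-CA, and 5 rose and 9 fell with NFAT2-CARIT (68.4% and 73.7% called). Dnajc15, a J-domain protein of the inner membrane, fell from 65.9 ± 13.2 to 24.3 ± 1.71 and 28.1 ± 0.672 CPM (-1.39 ± 0.11, adjusted p = 3.1e-08, and -1.18 ± 0.11, adjusted p = 1.5e-07). Timm10, of the import machinery, fell from 3.35 ± 0.433 to 0.75 ± 0.235 and 0.459 ± 0.194 CPM (-1.32 ± 0.17, adjusted p = 3.4e-06, and -1.58 ± 0.17, adjusted p = 3.6e-07). Timm10 passed the filter through the Control libraries, where it was high. Lonp1, the matrix protease, rose with NFAT2-CA from 94.9 ± 2.82 to 162 ± 10.6 CPM (0.76 ± 0.06, adjusted p = 2.9e-08) and was higher there than in NFAT2-CARIT libraries (NFAT2-CARIT minus NFAT2-CA, -0.42 ± 0.06, adjusted p = 0.00016).

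Chaperones of the endoplasmic reticulum, the group most like the one described here, had 9 of 19 genes up and 3 down with NFAT2-CA and 10 up and 4 down with NFAT2-CARIT (63.2% and 73.7% called, beside 65.5% and 70.3% of all genes), with medians of 0.16 and 0.24 against 0.09 and 0.14 for the 41 genes. Their HSP70, Hspa5 (BiP), rose from 235 ± 22.1 to 498 ± 16.0 and 481 ± 16.1 CPM (1.09 ± 0.07, adjusted p = 4.6e-10, and 1.04 ± 0.07, adjusted p = 7.2e-10). Between the vectors 1 of 19 was higher and 3 lower with NFAT2-CARIT, beside 6 higher and 1 lower of the 41. That is 21.1% and 17.1% called, both below the 28.6% of all genes (11.9% higher, 16.7% lower). Whether the groups of genes differ was not tested.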

How the data were processed

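RNA-seq of 9 libraries was analysed from 2 deposited tables. The expression table holds CPM to which the authors' processing had added 0.0001, read from the values: each library sums to 1000000 after its removal, within 0.1. The deposited comparison table gives p-values, step-up FDR and log2 ratios; DESeq2, Partek 10 and mm10 are named in the submitters' processing notes. Aligner, quantifier, annotation and strand use are not given there or in the labels, so reads of shared or overlapping sequence cannot be assigned with certainty. The listed end is 1 base past the GENCODE M21 end and was reduced by 1. Depth was estimated from the spacing of low values and covers counting error only. Among values of at most 1 CPM, 81.3% to 84.3% fell within 0.1 read of a whole number, short of the 95% needed to rebuild reads. No 2 libraries were identical.

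The values log2(CPM + 1) were fitted in R 4.3.3 with limma 3.58.1, with all 9 libraries in 1 model of group means (eBayes, trend and robust both on). Adjustment was by Benjamini-Hochberg over the 13090 genes with at least 1 CPM in at least 3 libraries, at a threshold of 0.05. In data simulated after the comparison of NFAT2-CA and Control (12483 genes tested), a log2 change of 0.3 was recovered for 22 of 50 genes. At 0.6 the number was 48 of 50, at 1 and at 2 it was 50 of 50, and 9 other genes were called falsely. Transcript lengths are from GENCODE M21 (40 of 41 members). Each is that of the longest coding transcript, taken among those marked principal where there were any. Python 3.11.15, pandas 2.3.3 and matplotlib 3.10.9 were used for reading and drawing.

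The 41 members and all lists were chosen with earlier results of these data known. Values in every library were to be given for Hspa1a, Hspa1b, Hsp90aa1, Hsp90ab1, Hspa8, Dnajb1, Hsf1, Hspd1, Hspe1 and the 3 largest called changes per family and comparison; of the other lists, up to 2 rises and 2 falls could be named. Each of these settings was changed alone: the pseudocount (0.5 or 5), the filter (none or 10 CPM), the scaling (TMM factors or quantiles), the libraries (the 6 compared, or 1 left out), a replicate block, Hspa1a and Hspa1b as 1 sum, and the authors' table.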

Additional observations from a re-analysis of the deposited data

How the results depend on the processing

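No called change of a chaperone gene reversed under any of 18 other limma settings or in the authors' table. Under all 18, 24 of the 31 calls held with NFAT2-CA, 27 of 33 with NFAT2-CARIT and 6 of 7 between the vectors; the calls lost are given beside each gene. Leaving out 1 library gave 26 to 32, 31 to 35 and 6 to 10 called members in these comparisons, and 7898 to 8583, 8513 to 9342 and 2763 to 4215 called genes of all tested. The authors' deposited table moved every count by over 1.5 times: 18, 20 and 2 members, and 3602, 4216 and 468 genes in all, against 8574, 9200 and 3744; the cause was not tested. The replicate numbers did not pair the libraries (deviations correlated at -0.07 to 0.26 for same-numbered pairs, over 0.1 in 1 of 9, and the best partner shared the number in 4 of 18 checks). With the replicate block 30, 33 and 7 members were called, the call lost being Cct5 with NFAT2-CA (adjusted p = 0.055). In the simulation 22 of 50 changes of 0.3 on the log2 scale were recovered. It left 12283 of 12483 genes unchanged, so its adjustment was stricter than here, and the 22 of 50 does not carry over. Genes not called may have moved within their 95% intervals, with NFAT2-CA -0.13 to 0.11 for Hspa8 and -0.15 to 0.33 for Hsf2. Reads shared with near copies limit Hspa8, Hspa1a, Hspa1b, Hsp90aa1, Hspd1, Dnajb6 and Hspe1.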
